A study of Homo sapiens with 16 samples.

Results

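The genes described here are those carried by the mitochondrial genome, chosen as every gene whose symbol begins with MT-. There were 37 of them among the 60623 genes in the files, made up of 13 protein-coding genes, 2 ribosomal RNA (rRNA) genes and 22 transfer RNA (tRNA) genes. They were followed in Caco-2, a human colorectal adenocarcinoma line used as a gut model, and in HepG2, a human hepatocellular carcinoma line used as a liver model. Both lines were grown in a microfluidic device that can join them by a shared flow of medium. Each line was kept alone (mono-culture) or with the other line (co-culture), and was either untreated (control) or given free fatty acids (FFA), a 1 mM mixture of palmitic and oleic acid. This gave 8 groups of 2 Oxford Nanopore PCR-cDNA libraries of polyA+ RNA, 16 in all. The labels place sample preparation 1 day after FFA, and the study describes sequencing after that time and after a longer exposure. The FFA came from stocks in the solvent dimethyl sulfoxide, and the FFA medium held albumin free of fatty acids. The study describes a dose series that starts without FFA. It does not state whether the medium of the untreated groups held the same albumin and solvent. FFA and a change of medium or solvent therefore cannot be told apart.

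The mitochondrial genome is a small circle, present in many copies per cell. Its 2 strands, called heavy and light, are copied as long precursors from which tRNAs are cut out, and this cutting frees the mRNAs and rRNAs between them. Most mitochondrial mRNAs then receive a short poly(A) tail, and their products are core subunits of complexes I, III, IV and V of the respiratory chain and ATP synthase. The remaining subunits, the mitochondrial ribosomal proteins and the transcription machinery are encoded in the nucleus, so the respiratory chain depends on both genomes.

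The ends of the mRNA genes are shown first, because tRNA genes follow many of them directly and some take part of their stop codon from the poly(A) tail. In the GRCh38 mitochondrial sequence (16569 bases), 6 of the 13 protein-coding genes stopped short of a full stop codon and 7 held a complete one. The last 15 bases of the 8 genes that were called higher in Caco-2 co-culture without FFA, where 0.0841% of all genes tested were, are given on the plus strand of the reference, with the complete or incomplete stop in capitals.
MT-ND1, chrM:3307-4262: tccccctcaaaccTA
MT-ND2, chrM:4470-5511: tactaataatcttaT
MT-CO1, chrM:5904-7445: tacataaaatctAGA
MT-CO2, chrM:7586-8269: gtatttaccctaTAG
MT-ATP6, chrM:8527-9207: cacgacaacacaTAA
MT-CO3, chrM:9207-9990: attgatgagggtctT
MT-ND4, chrM:10760-12137: ccgggttttcctctT
MT-CYB, chrM:14747-15887: tactcaaatgggccT
An end in T or TA becomes a stop codon only when adenines are added.

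Genes that share bases share reads. MT-ATP8 and MT-ATP6 overlap by 46 bases and lie on 1 mRNA, and the same holds for MT-ND4L and MT-ND4, which overlap by 7 bases. The overlaps are in capitals below, on the plus strand, because reads over them cannot be assigned to 1 gene of each pair. The line that follows them holds the end of MT-ND4, its last base in capitals, and the first bases of the histidine tRNA gene MT-TH, which follows with no base between them.
MT-ATP8 and MT-ATP6, chrM:8515-8584: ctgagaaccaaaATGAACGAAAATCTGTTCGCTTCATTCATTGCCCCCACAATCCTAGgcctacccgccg
MT-ND4L and MT-ND4, chrM:10748-10778: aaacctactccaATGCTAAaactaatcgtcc
MT-ND4 and MT-TH, chrM:12123-12152: ccgggttttcctctTgtaaatatagtttaa
The use of strand in the counting was not given in the sources used here. MT-ND6 and the 8 tRNA genes on the minus strand therefore cannot be separated from heavy-strand RNA that covers the same bases.

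The libraries held 49634 to 1657430 reads, and the HepG2 co-culture FFA libraries were the shallowest with 147096 and 49634. Values are CPM, which put all libraries on 1 total, in which a count of 3 reads amounted to 1.81 to 60.4 CPM depending on the library. Among 16 liver markers, 12 were higher in every HepG2 library than in any Caco-2 library, and 7 of 16 colon markers showed the opposite pattern. The colon marker CDX1 had no read in any library. Replicates are separate samples by their labels, which do not say that they came from separate cultures. The study states that its mRNA-seq rested on at least 2 independent experiments, without assigning libraries to them. The p-values measure the spread between these samples. In bulk RNA, fewer mitochondria per cell and less RNA per mitochondrion cannot be told apart.

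The share of all reads that came from the 37 genes separated the lines. In Caco-2 cells it was 2.76% and 2.73% in mono-culture control, 3.97% and 3.66% in mono-culture FFA, 3.81% and 3.41% in co-culture control, and 3.51% and 3.41% in co-culture FFA. In HepG2 cells it was 10.6% and 10.0% in mono-culture control, 10.3% and 9.10% in mono-culture FFA, 8.77% and 6.29% in co-culture control, and 7.49% and 7.77% in co-culture FFA. Every HepG2 library thus lay above every Caco-2 library. The mono-culture control was the lowest group in Caco-2 cells and held the highest library in HepG2 cells. The 95% Wilson interval for the shallowest library ran from 7.54% to 8.01%, and such intervals cover counting error only, because PCR reads are not independent molecules.

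**Figure D1:**
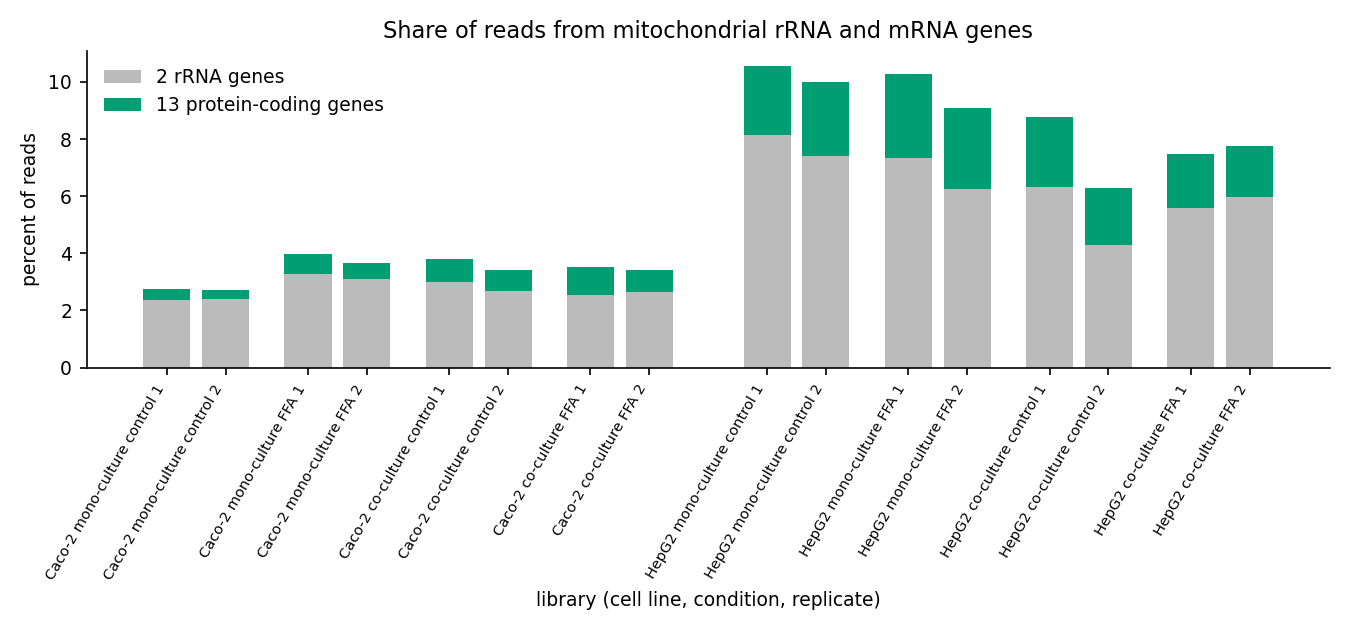
Percent of all reads in each of the 16 libraries that came from the 2 mitochondrial rRNA genes (grey) and the 13 protein-coding genes (green); tRNA genes are too few to show. The 8 HepG2 bars reach 6.29% to 10.6% and the 8 Caco-2 bars 2.73% to 3.97%, and the green part is smallest in the Caco-2 mono-culture control libraries.

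Most of these reads were rRNA, the scaffold of the mitochondrial ribosome. MT-RNR2, the large-subunit rRNA, held 65.9% of all mitochondrial reads over the 16 libraries. The ratio of rRNA to mRNA reads differed between conditions in Caco-2 cells. It stood at 6.33 and 7.73 in mono-culture control, 4.65 and 5.73 in mono-culture FFA, 3.69 and 3.74 in co-culture control, and 2.63 and 3.36 in co-culture FFA. These 4 groups did not overlap. In HepG2 cells the ratio lay between 2.14 and 3.39 over the 8 libraries.

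Per kilobase of gene, MT-RNR2 was highest in both lines, at 16321 ± 1984 CPM per kb in Caco-2 cells and 35919 ± 7461 in HepG2 cells (mean ± SD, n = 8 libraries of a line). MT-RNR1, the small-subunit rRNA, came second in Caco-2 cells at 2195 ± 303 CPM per kb. In HepG2 cells it averaged 8519 ± 733 and stood after MT-CO2 at 10450 ± 1996, a gap smaller than the spread of MT-CO2. In Caco-2 cells MT-CO2 stood at 1501 ± 797 CPM per kb. It was followed by MT-ND2, MT-CO1, MT-ND1, MT-ND4, MT-CO3 and MT-ATP6, whose means of 574 to 852 CPM per kb lay within each other's spread from neighbour to neighbour. The lowest mRNAs in both lines were MT-ND5, MT-ND6 and MT-ATP8. MT-ATP8, a short subunit of ATP synthase, had 52.5 ± 20.2 CPM per kb in Caco-2 cells and 206 ± 89.9 in HepG2 cells, against 574 ± 182 and 2279 ± 495 for MT-ATP6, with which it shares an mRNA.

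**Figure D2:**
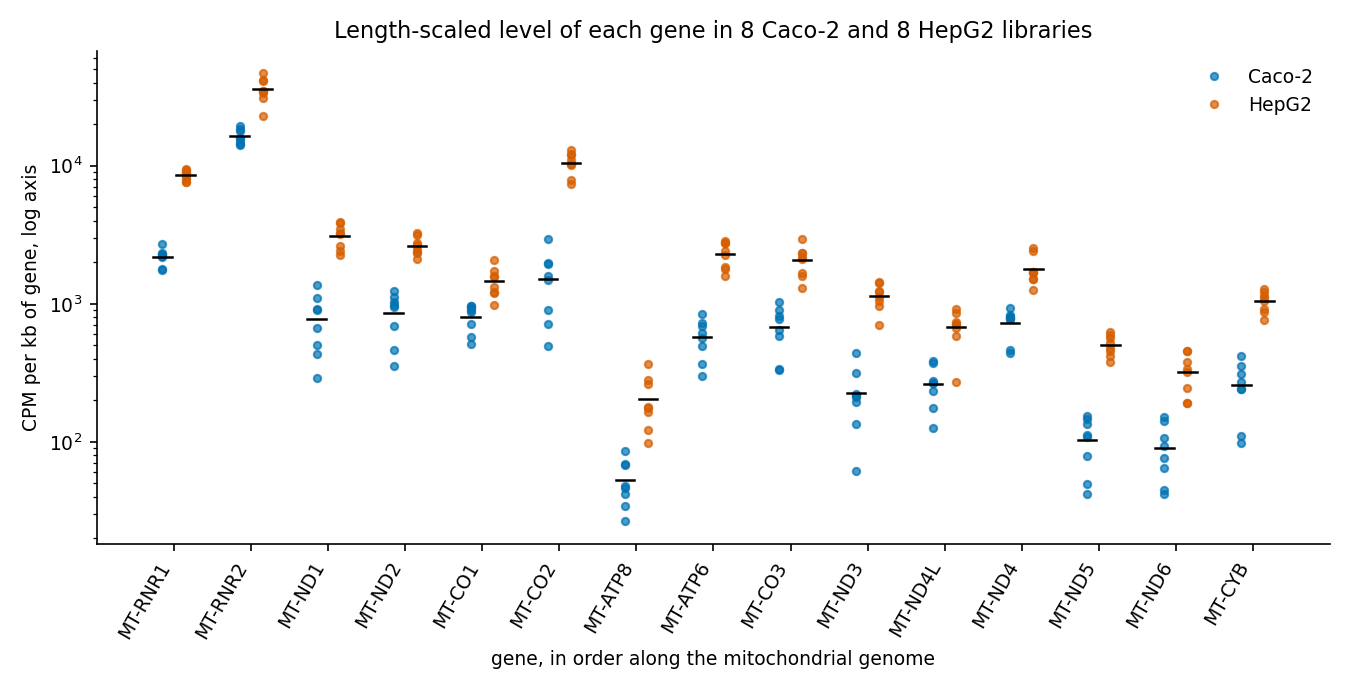
CPM per kb of gene on a log axis for the 2 rRNA and 13 protein-coding genes in order along the mitochondrial genome; each point is 1 library (8 Caco-2 in blue, 8 HepG2 in orange) and black bars are line means. MT-RNR2 is highest in both lines, MT-CO2 averages 10450 CPM per kb in HepG2 and 1501 in Caco-2 cells, and MT-ATP8 is lowest.

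In Caco-2 cells, co-culture with HepG2 cells without FFA came with higher levels of mitochondrial mRNAs. Of the 13 protein-coding genes, 8 passed the test (limma, adjusted p under 0.05 over 15454 genes) and all 8 were higher. They belong to 4 complexes: MT-ND1, MT-ND2 and MT-ND4 of complex I, MT-CYB of complex III, MT-CO1, MT-CO2 and MT-CO3 of complex IV, and MT-ATP6 of complex V. Over all genes tested, 0.0841% were called higher, which is 13 genes, so these 8 made up most of them. The 13 differences ran from 0.75 to 1.57 on the log2(CPM + 1) scale with a median of 1.25, against a median of 0.10 over all genes tested.

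The core subunits of complex IV, cytochrome c oxidase, showed the widest range. MT-CO2, which carries the copper site that takes up electrons from cytochrome c, stood at 487 and 338 CPM in mono-culture control and at 1347 and 1082 CPM in co-culture control, a log2 difference of 1.57 (SE 0.23, adjusted p = 0.0126 by limma). MT-CO3 stood at 260 and 264 CPM against 642 and 610 CPM, a log2 difference of 1.25 (SE 0.13, adjusted p = 0.000946 by limma). MT-CO1, the catalytic subunit, stood at 884 and 784 CPM against 1353 and 1441 CPM, a log2 difference of 0.75 (SE 0.12, adjusted p = 0.0263 by limma). In each case both co-culture libraries lay above both mono-culture libraries. MT-CO1 differed least of the 3, and also least of the 13 mRNAs.

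In complex I, which takes electrons from NADH, MT-ND1 rose from 416 and 277 CPM to 1056 and 873 CPM, or 1.50 in log2 (SE 0.21, adjusted p = 0.00860 by limma). MT-ND2 rose from 484 and 369 CPM to 1169 and 1026 CPM, or 1.37 (SE 0.17, adjusted p = 0.00229). MT-ND4 rose from 635 and 608 CPM to 1141 and 1065 CPM, or 0.83 (SE 0.11, adjusted p = 0.00517). The spread between replicates was widest for MT-ND1 and smallest for MT-ND4. The other complex I genes, MT-ND3, MT-ND4L, MT-ND5 and MT-ND6, did not pass although none of their groups overlapped. MT-ND6, the only mRNA gene on the minus strand, stood at 21.9 and 23.5 CPM in mono-culture control and 55.5 and 33.9 CPM in co-culture control.

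MT-CYB, the cytochrome b of complex III, rose from 126 and 112 CPM to 402 and 277 CPM, or 1.49 in log2 (SE 0.20, adjusted p = 0.00517 by limma). MT-ATP6, the proton channel subunit of ATP synthase, rose from 249 and 206 CPM to 470 and 415 CPM, or 0.96 (SE 0.15, adjusted p = 0.0238). Its partner MT-ATP8 had 5.48 and 7.05 CPM against 17.8 and 14.1 CPM and did not pass. The 2 rRNA genes moved far less and did not pass the test. MT-RNR1 differed by 0.35 (SE 0.10, adjusted p = 0.291) and MT-RNR2 by 0.24 (SE 0.07, adjusted p = 0.310), both by limma. All 13 mRNAs and both rRNAs had every co-culture library above every mono-culture library, a pattern held by 22% of all genes tested. None of the 9 tRNA genes that passed the filter was called.

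**Figure D3:**
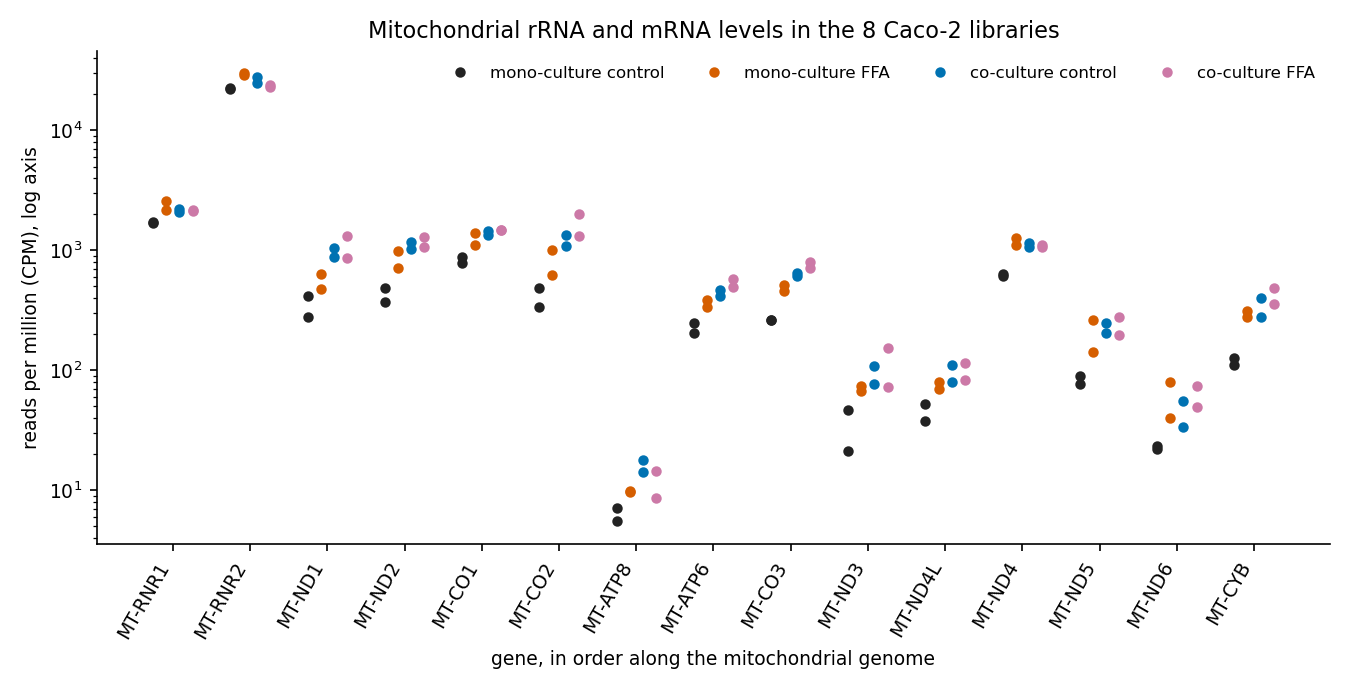
CPM on a log axis for the 2 rRNA and 13 protein-coding genes in the 8 Caco-2 libraries, 2 points per group, with colours for the 4 conditions. The mono-culture control points are the lowest of each mRNA, as for MT-CO3 at 260 and 264 CPM, while the groups lie close together for MT-RNR1 and MT-RNR2.

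The count rested on single libraries. It was 0 without any 1 of the 4 FFA libraries, which enter only through the estimate of spread. It was 1 without co-culture control replicate 1 or mono-culture control replicate 2, and 4 without co-culture control replicate 2 or mono-culture control replicate 1, the latter with 1 tRNA gene lower. In all 8 of these fits the 13 mRNAs had positive differences, and 10 to 13 of them had an unadjusted p under 0.05. With a pseudocount of 0.1 in place of 1, a single gene passed, while edgeR called 10 mitochondrial genes and DESeq2 9, all higher. The share of all genes that edgeR or DESeq2 called is not given here, so their counts have no background beside them.

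The summed CPM of the 16 liver markers also differed in Caco-2 cells, with 9961 to 11568 in the mono-culture and 12845 to 13516 in the co-culture libraries. Between the controls, 10 of the 16 were higher in co-culture without overlap and 1 was lower, where 22.0% and 9.60% of all genes tested were. No member was at 0 in both libraries of either group. AFP, the fetal liver plasma protein alpha-fetoprotein, had 194 to 293 CPM in mono-culture control and 413 to 456 CPM in co-culture control, and the fibrinogen chain FGG had 43.5 to 68.4 CPM against 90.4 to 103 CPM. TF (transferrin), also higher without overlap, had 0 to 2.35 CPM against 2.82 to 5.94 CPM, and at least 806 CPM in HepG2 cells. No TF value in the Caco-2 controls exceeded what 3 reads amount to in its library, so the order of TF rests on a few reads. TTR and VTN were higher without overlap too, yet averaged less in HepG2 than in Caco-2 cells (786 against 1006 CPM and 471 against 1184 CPM). The marker that was lower, AHSG, averaged 3242 CPM in HepG2 and 1009 CPM in Caco-2 cells. APOA2, with means of 11733 and 830 CPM, overlapped between the controls. The nuclear-retained RNAs MALAT1 and NEAT1 summed to 7072 to 8779 CPM in mono-culture control and 8533 to 8803 CPM in co-culture control. The part of the marker sum in the result was not tested.

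FFA in Caco-2 mono-culture came with higher values of all 13 mRNAs, but a single gene passed. This comparison and that of co-culture without FFA share the mono-culture control libraries, so they are not independent. MT-ND4 stood at 1274 and 1114 CPM under FFA and at 635 and 608 CPM in control (log2 difference 0.94, SE 0.11, adjusted p = 0.0105 by limma). It was the only gene called of all, or 0.00647% of those tested. The 13 log2 differences ran from 0.58 to 1.29 with a median of 0.94, against 0.02 over all genes tested. MT-CYB had the largest, with 309 and 276 CPM under FFA against 126 and 112 CPM (log2 difference 1.29, SE 0.20, adjusted p = 0.0622 by limma). MT-RNR2 stood at 30056 and 28980 CPM against 22118 and 22435 CPM (log2 difference 0.41, SE 0.07, adjusted p = 0.108 by limma). All 13 mRNAs and both rRNAs lay above control without overlap, where 16% of all genes tested did. The nuclear-retained RNAs MALAT1 and NEAT1 were higher too, with a sum of 9880 to 10608 CPM under FFA against 7072 to 8779 CPM, both with an unadjusted p under 0.05, and their part in the result was not tested. Leaving out any of the 4 co-culture libraries, which enter only through the estimate of spread, brought the count to 0. Without mono-culture control replicate 1 it was 3 (2 higher and 1 lower), without FFA replicate 1 it was 2, and without FFA replicate 2 it was 3.

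In Caco-2 co-culture the mRNAs with and without FFA lay close together. By limma 0 mitochondrial genes passed, 0 had an unadjusted p under 0.05, and 0 passed with edgeR or DESeq2. The share of all genes called was 0%. The 13 log2 differences ran from -0.47 to 0.47 with a median of 0.15. MT-ND4 had 1075 and 1106 CPM under FFA and 1141 and 1065 CPM without it, so its groups overlapped. MT-CO2 had 2003 and 1323 CPM against 1347 and 1082 CPM and overlapped as well. Of the 13 mRNAs, 3 were higher without overlap, against 15.2% of all genes.

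The test of whether the FFA effect differed between the cultures, the interaction, called 0 mitochondrial genes and 0% of all genes. Its 13 log2 values were all negative, from -1.15 to -0.40, and 8 of 24 mitochondrial genes tested had an unadjusted p under 0.05. Neither edgeR nor DESeq2 called a mitochondrial gene for it. The replicate block gave 3 calls and the fit with no filter 2, all negative. Without co-culture FFA replicate 1 there were 5 calls (4 positive and 1 negative), without co-culture FFA replicate 2 there were 4 (3 positive and 1 negative), and without mono-culture control replicate 1 there were 3 (2 positive and 1 negative). There were 2 negative calls without co-culture control replicate 2, and 1 without either of the mono-culture FFA libraries. With any 1 library left out, all 13 mRNAs kept negative values, so none of the positive calls was an mRNA. The calls thus depended on the setting.

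With FFA present in both cultures, 12 of 13 mRNAs had a higher value in Caco-2 co-culture, but none passed by limma (0.0971% of all genes did). There were 7 mitochondrial genes with an unadjusted p under 0.05, and edgeR called 4 and DESeq2 2. Those counts from edgeR and DESeq2 stand without a share of all genes called. MT-CO2 had 2003 and 1323 CPM in co-culture FFA and 1016 and 617 CPM in mono-culture FFA, without overlap (log2 difference 1.04, SE 0.23, adjusted p = 0.170). Of the 13 mRNAs, 8 were higher without overlap, where 20% of all genes tested were. MT-ND4 had the opposite order, 1075 and 1106 CPM against 1274 and 1114 CPM. MT-RNR2 was lower in co-culture FFA, at 23232 and 24174 CPM against 30056 and 28980 CPM (log2 difference -0.32, SE 0.07, adjusted p = 0.154 by limma). MT-RNR1 was lower as well, and neither rRNA overlapped, where 14.6% of all genes tested were lower without overlap.

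As a mean of both treatments, the co-culture effect was called in Caco-2 cells for 7 mRNAs, all higher: MT-CO2 (log2 1.30), MT-ND1 (1.22), MT-CYB (0.99), MT-CO3 (0.95), MT-ND2 (0.93), MT-ATP6 (0.76) and MT-CO1 (0.50). Their adjusted p values by limma ran from 0.000155 to 0.0210, and 0.317% of all genes were called higher. MT-ND4, called without FFA, had 0.35 here (adjusted p = 0.0787). MT-RNR1 and MT-RNR2 had 0.10 and -0.04. Leaving out mono-culture control replicate 2 brought the count to 0, and leaving out co-culture control replicate 1 or mono-culture FFA replicate 2 to 1. It was 4 without co-culture control replicate 2, mono-culture control replicate 1 or mono-culture FFA replicate 1.

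Averaged over culture, the FFA effect called 0 mitochondrial genes and 0% of all genes by limma, with 13 mitochondrial genes at an unadjusted p under 0.05. With edgeR 5 were called higher and with DESeq2 0, counts that stand without a share of all genes called. The test of any difference among the 4 Caco-2 conditions called 8 mRNAs and 0.155% of all genes. It called 0 without co-culture control replicate 1 or mono-culture control replicate 2, 3 without any one of mono-culture control replicate 1 and the mono-culture FFA libraries, and 5 without co-culture control replicate 2 or co-culture FFA replicate 2.

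In HepG2 cells the mitochondrial genes did not follow this pattern, and limma with all 8 libraries called none of the 26 that were tested in any comparison. Averaged over treatment, all 13 mRNAs had lower values in co-culture, from -0.67 to -0.17 in log2 with a median of -0.43, against -0.09 over all genes. By limma 9 mitochondrial genes had an unadjusted p under 0.05, and 0% of all genes were called. With edgeR 7 were called lower and with DESeq2 8, and the share of all genes these tools called is not given here. MT-ND4 had the smallest adjusted p of them at 0.236, with a log2 difference of -0.47 (SE 0.07). With any 1 library left out, all 13 mRNAs stayed lower, with median log2 differences of -0.57 to -0.37.

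The lower values were clearest under FFA. MT-CO2 stood at 5017 and 5379 CPM in co-culture FFA and at 8197 and 8837 CPM in mono-culture FFA (log2 difference -0.71, SE 0.09, adjusted p = 0.107 by limma). MT-CO3 stood at 1251 and 1027 CPM against 2308 and 1841 CPM (-0.86, SE 0.16, adjusted p = 0.154 by limma). MT-ND4 stood at 2094 and 2297 CPM against 3321 and 3504 CPM (-0.64, SE 0.10, adjusted p = 0.154 by limma). In each of these 3 both co-culture libraries lay below both mono-culture libraries. The same held for 12 of 13 mRNAs and both rRNAs, and for 14.3% of all genes tested. By limma 11 mitochondrial genes had an unadjusted p under 0.05, and 0% of all genes were called. The edgeR and DESeq2 counts, 6 and 10 lower, stand without the share of all genes that those tools called. With any 1 library left out, all 13 mRNAs stayed lower, with median log2 differences of -0.71 to -0.55. The 2 co-culture FFA libraries are the shallow ones, and 1 read was worth 20.1 CPM in the second of them. The colon markers summed to 374 to 463 CPM in co-culture FFA against 266 to 335 CPM in mono-culture FFA. Of the 16, 2 were higher and 1 lower without overlap, where 12.8% and 14.3% of all genes tested were. In co-culture FFA 13 of the 16 were at 0 in both libraries, and in mono-culture FFA 11 were. VIL1, an actin-binding protein of the gut brush border, had at least 61.2 CPM against at most 18.8 CPM. It did not separate the lines, with means of 43.9 CPM in Caco-2 and 35.6 CPM in HepG2 cells. Among the colon markers that did, EPCAM was higher, at 305.9 to 342.5 CPM against 237.9 to 305.6 CPM. TSPAN8 had no read in co-culture FFA and 2.36 to 3.64 CPM in mono-culture FFA, which is 1 read per library. In co-culture FFA 1 read was worth 6.80 and 20.1 CPM. A lower level of TSPAN8, or of the markers at 0, therefore cannot be read from these zeros. CDH17, PHGR1, CEACAM5, CEACAM6 and MUC13 had no read in either group. The liver markers summed to 68900 to 87963 CPM against 54125 to 62985 CPM. Of these 16, 11 were higher and 2 lower without overlap, beside the same shares of 12.8% and 14.3% of all genes. The part of either list in the result was not tested. In the comparison between the controls, which follows, the shallow libraries enter only through the estimate of spread.

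Without FFA, 10 of 13 HepG2 mRNAs were lower in co-culture, with a median log2 difference of -0.22. By limma 0 passed (5 mitochondrial genes had an unadjusted p under 0.05, 0% of all genes were called), and edgeR and DESeq2 called 0. MT-RNR2 had 54173 and 35525 CPM in co-culture control and 73034 and 65608 CPM in mono-culture control, with a wide gap between the co-culture replicates. MT-CO2, at 7515 and 6949 CPM against 7028 and 8258 CPM, overlapped. Of the 13 mRNAs, 6 were lower without overlap, where 12.4% of all genes tested were. MALAT1 and NEAT1 summed to 2518 to 3372 CPM over the HepG2 co-culture libraries and 4060 to 5163 CPM over the mono-culture libraries. Between the controls MALAT1 was lower in co-culture, at 2878 ± 316 against 4277 ± 520 CPM (mean ± SD, n = 2). NEAT1 had 122 ± 40.8 against 147 ± 4.68 CPM, a gap within its spread. The part of these nuclear RNAs in the result was not tested.

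FFA was followed by small differences in HepG2 cells. In mono-culture the 13 mRNAs had a median log2 difference of 0.17, against 0.06 over all genes, and 10 had positive values. Of them 7 were higher without overlap and 1 lower, where 20.2% and 12.3% of all genes were. In co-culture the median was -0.30, against -0.26 over all genes, and 11 had negative values. Of them 5 were lower without overlap, where 25.2% of all genes were. By limma 0 passed in mono-culture, in co-culture or on average, with 4, 4 and 6 mitochondrial genes at an unadjusted p under 0.05. Of all genes 0%, 0% and 0.0762% were called. For these 3 comparisons edgeR called 0, 3 and 3 mitochondrial genes and DESeq2 0, 8 and 4, all lower. The share of all genes called by either tool is not given here. The interaction called 0 genes by limma, edgeR or DESeq2 among the mitochondrial ones (4 had an unadjusted p under 0.05 by limma) and 0% of all genes by limma. The test of any difference among the 4 conditions called 0 by limma (0% of all genes, 9 mitochondrial genes with an unadjusted p under 0.05), 8 by edgeR and 12 by DESeq2.

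The 2 lines differed in the co-culture effect itself. In a fit over all 16 libraries, the averaged co-culture effect was lower in HepG2 than in Caco-2 cells for 8 mRNAs, where 0.0741% of all genes, or 13, were called lower. MT-CO2 had a difference of -1.70 in log2 (SE 0.23, adjusted p = 0.00689 by limma) and MT-ND1 the same size, -1.70 (SE 0.22, adjusted p = 0.00689). MT-CO3 had -1.51, MT-CYB -1.38, MT-ATP6 -1.30, MT-ND2 -1.10, MT-CO1 -1.05 and MT-ND4 -0.82, with adjusted p values of 0.00118 to 0.0346. MT-RNR1 and MT-RNR2 had -0.22 and -0.41 and did not pass. All 13 mRNAs had negative values, with a median of -1.18 against -0.20 over all genes.

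The count of 8 fell to 3 without HepG2 co-culture control replicate 2 or without HepG2 mono-culture control replicate 1, and lay between 7 and 11 without any other library. In an alternative chosen after seeing the data, the 2 shallow libraries were left out and the co-culture effect was compared between controls over 14 libraries. There 6 mRNAs were lower, where 0.0404% of all genes tested, or 7, were: MT-ND4, MT-CO3, MT-CYB, MT-ATP6, MT-CO1 and MT-ND1. By limma the difference between lines in the averaged FFA effect called 0 mitochondrial genes (12 at an unadjusted p under 0.05) and 0.0912% of all genes. With edgeR and DESeq2 11 each were called lower in HepG2 cells, and their share of all genes is not given here.

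**Figure D4:**
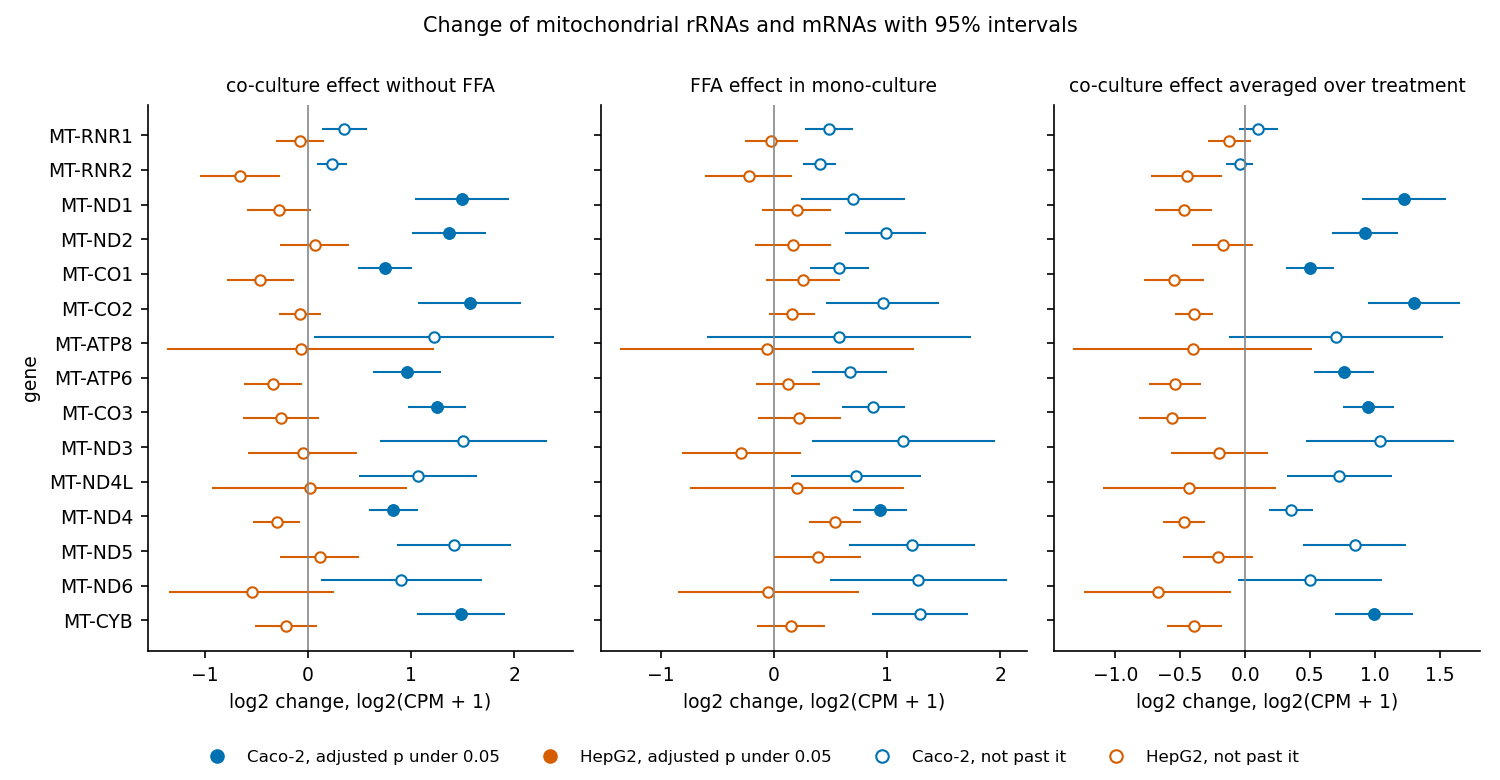
Log2 change on the log2(CPM + 1) scale with 95% intervals from limma for the 2 rRNA and 13 protein-coding genes in Caco-2 (blue) and HepG2 cells (orange), for 3 comparisons; filled points have an adjusted p under 0.05. In Caco-2 cells 8 genes are filled for co-culture without FFA, 1 for FFA in mono-culture and 7 for the averaged co-culture effect, and no HepG2 point is filled.

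Between untreated mono-cultures, all 13 mRNAs and both rRNAs were called higher in HepG2 than in Caco-2 cells by limma, where 4.78% of all genes tested were called higher. The mRNA differences ran from 1.54 to 4.23 in log2 with a median of 2.95, against 0.00 over all genes. MT-CO2 had the largest, at 7028 and 8258 CPM in HepG2 against 487 and 338 CPM in Caco-2 cells (log2 difference 4.23, SE 0.23, adjusted p = 4.41e-08 by limma). MT-CO1, of the same complex, had the smallest, at 2463 and 2392 CPM against 884 and 784 CPM (1.54, SE 0.14, adjusted p = 4.47e-06 by limma). MT-RNR1 differed by 2.33 and MT-RNR2 by 1.64, below the median of the mRNAs. Averaged over the 4 conditions the same 15 genes were called, against 12.5% of all genes called higher, with mRNA differences of 0.86 to 2.98 and a median of 1.88. The calls for the mRNAs and rRNAs held without any 1 library.

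The mix of mRNAs therefore differed too. MT-CO2 made up 26.4% to 34.7% of the reads of the 13 mRNAs in HepG2 cells and 10.8% to 20.8% in Caco-2 cells, without overlap. MT-CO1 showed the reverse, with 7.59% to 10.7% in HepG2 and 15.3% to 25.1% in Caco-2 cells. MT-CO2 reads outnumbered MT-CO1 reads 2.58-fold to 4.57-fold in HepG2 libraries, and the ratio was 0.432 to 1.36 in Caco-2 libraries. Within Caco-2 cells the share of MT-CO2 was 11.9% ± 1.51 in mono-culture control, 12.9% ± 2.22 in mono-culture FFA, 15.8% ± 1.10 in co-culture control and 18.8% ± 2.72 in co-culture FFA (SD, n = 2). Complex I genes together took 44.0% to 48.4% of mRNA reads in Caco-2 and 39.3% to 45.1% in HepG2 cells, so those ranges overlapped.

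The 22 tRNA genes gave 350 reads in all, 0.0582% of the mitochondrial reads. They are short, are cut from their precursors and carry no long poly(A) tail, so a polyA+ library is not made to count them. MT-TF and MT-TK had no read in any library, and 19 of the 22 had fewer than 10 reads in total. The filter of a mean of at least 1 CPM in 1 group was passed by 9 tRNA genes in Caco-2, 11 in HepG2 and 16 in the joint fit, often through the 1 group in which a few reads fell. MT-TQ had 63 reads, MT-TY 18, MT-TI 9, and MT-TL1 and MT-TS2 8 each, with no difference called for any of them.

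MT-TH stood apart with 203 reads, of which 200 came from HepG2 and 3 from Caco-2 libraries, although the lines had 4953377 and 4888029 reads in all. In HepG2 cells it had 41.8 and 38.1 CPM in mono-culture control, 25.9 and 29.1 in mono-culture FFA, 54.3 and 33.8 in co-culture control, and 13.6 and 0 in co-culture FFA, where 0 rests on a library in which 3 reads amount to 60.4 CPM. In Caco-2 cells it had 3.08 CPM in co-culture FFA replicate 1 and no read in the other 7 libraries. The difference between untreated mono-cultures passed the test (adjusted p = 0.00410 by limma), and set against 3 reads per Caco-2 library it was at least 6.81-fold. The Caco-2 side of that test held only zeros, without spread. MT-TH passed the filter only through groups in which it had reads, so the p-value adds no support to the read counts. MT-TH begins where MT-ND4 ends, as the junction printed above shows. There were 1.63 to 2.62 MT-TH reads per 100 MT-ND4 reads in the 4 untreated HepG2 libraries, and 0 to 0.831 in the 4 with FFA. In the 8 Caco-2 libraries there were 0 to 0.286.

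Lists of nuclear subunits of complexes I to V, mitochondrial ribosomal proteins and factors of mitochondrial transcription and RNA processing were examined beside the mitochondrial genes. For the averaged co-culture effect in Caco-2 cells, 1 of 16 tested nuclear complex V genes passed, ATP5PO, a stalk subunit of ATP synthase (log2 0.53, SE 0.11, adjusted p = 0.0478 by limma). None passed among 37 genes of complex I, 4 of II, 9 of III, 11 of IV, 78 ribosomal proteins and 35 factors. Their median log2 differences were 0.21, 0.22, 0.02, 0.01, 0.10 and 0.23, and that of complex V was 0.17, against 0.14 over all genes and 0.84 for the 13 mitochondrial mRNAs. With an unadjusted p under 0.05 there were 12, 1, 1, 0, 15 and 3 genes, and 7 of complex V. For complex I 35 of 37 values were positive. For complex IV the nuclear median was 0.01, while MT-CO1, MT-CO2 and MT-CO3 rose. The genes with the smallest p in the lists without a call were NDUFB2 (log2 0.58), SDHC (0.80), UQCR10 (0.23), COX6B1 (0.15), MRPS36 (0.52) and TRMT10C (0.96), with adjusted p values of 0.0787 to 0.523 by limma. TRMT10C is a part of the enzyme that cuts the 5′ ends of mitochondrial tRNAs, and had an adjusted p of 0.0787. Of the nuclear-retained RNAs NEAT1 had the smaller p (log2 0.34, adjusted p = 0.505 by limma).

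For the averaged FFA effect in Caco-2 cells no gene of these lists passed. The smallest p values belonged to NDUFS8, SDHC, UQCRC2, COX7C, ATP5IF1, MRPS18A and FASTKD2, of complexes I to V, the ribosome and the factors in that order, each with an adjusted p of 0.829. In HepG2 cells none passed either. For the averaged co-culture effect the smallest p values were those of NDUFB3, SDHC, UQCRB, COX6B1, ATP5F1E, MRPS17 and POLG2, with adjusted p values of 0.537 to 0.643, and MALAT1 among the nuclear-retained RNAs had -0.69 (adjusted p = 0.236). For the averaged FFA effect they were those of NDUFB6, SDHA, UQCRQ, COX7C, ATP5F1E, MRPL3 and SLIRP, with adjusted p values of 0.0596 to 0.387. COX7C and ATP5F1E were nearest to passing, at -0.58 and -0.48. NEAT1 in Caco-2 cells (0.62, adjusted p = 0.829) and MALAT1 in HepG2 cells (0.09, adjusted p = 0.724) had the smallest p of the nuclear-retained RNAs under FFA.

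Between the lines, complex IV held nuclear and mitochondrial genes called in opposite directions. Averaged over conditions, 10 of 11 nuclear complex IV genes were lower in HepG2 than in Caco-2 cells and none was higher, with a median of -0.78, while all 3 mitochondrial genes of that complex were higher. For complex I 18 of 37 were lower and 7 higher, for complex III 6 of 9 were lower, and for complex V 8 of 16 were lower and 2 higher. Of 78 mitochondrial ribosomal proteins 28 were higher and 17 lower. Over all genes tested, 12.5% were higher and 17.9% lower.

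The nucleus also holds copies of mitochondrial genes, whose reads can be hard to tell from the originals. Of 407 such entries 21 had a read, and their sum equalled 0.140% to 0.313% of the mitochondrial reads in a library. Those with at least 10 CPM in a group were MTND2P28, MTCO1P12, MTATP6P1, MTND1P23, MTRNR2L12 and MTCO2P12. MTND2P28 averaged 13.1 CPM in Caco-2 mono-culture control, 32.4 in co-culture control and 81.7 in HepG2 mono-culture control, the same order as MT-ND2. It was the copy with the smallest p in Caco-2 cells for the co-culture and FFA effects (adjusted p = 0.159 and 0.829 by limma), and MTRNR2L12 was that in HepG2 cells (0.618 and 0.297).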

How the data were processed

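RNA of Caco-2 and HepG2 cells was sequenced as Nanopore PCR-cDNA in 16 libraries. The submitters' processing notes name minimap2 2.22 and GRCh38, and the study's mRNA-seq methods name STAR and RSEM, without saying whether for these long reads. Strand use was not given in the sources used here. The study's methods describe the removal of rRNA, tRNA and mitochondrial reads, yet the deposited tables hold reads of mitochondrial genes. The deposited values were CPM by the authors, reads scaled to a common total, although headed TPM: 99.6% to 100% of values above 0 were whole multiples (within 0.1) of 1 read, and whole reads were recovered from them. No length scaling was present, so levels between genes were divided by GENCODE 44 gene length.

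Groups followed the labels. Values were tested as log2(CPM + 1) with limma 3.58.1 in R 4.3.3 (moderated, trended, Benjamini-Hochberg over all genes) after a filter of a group mean of at least 1 CPM, on the 8 libraries of each line or on all 16. A fold change on this scale understates the change of low genes. Alternatives were edgeR 4.0.16 and DESeq2 1.42.0 on recovered reads, another pseudocount, no filter, quantile normalization, a nuclear denominator, a replicate block and each library left out. The 13 mRNAs and 2 rRNAs are named in every comparison where they passed, and tRNAs where one passed or was among the 5 with most reads. From each other list the genes with the smallest p are named, and nuclear copies from 10 CPM. The members and lists were chosen with earlier results of these data known. Sequences are from GRCh38.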

Additional observations from a re-analysis of the deposited data

Results flagged for a closer look

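The co-culture effect averaged over treatment differed between HepG2 and Caco-2 cells for 8 mitochondrial mRNAs, by a test of the difference itself (limma, adjusted p under 0.05). HepG2 minus Caco-2 in log2 was -1.70 for MT-CO2, -1.70 for MT-ND1, -1.51 for MT-CO3, -1.38 for MT-CYB, -1.30 for MT-ATP6, -1.10 for MT-ND2, -1.05 for MT-CO1 and -0.82 for MT-ND4. In Caco-2 cells the averaged effect of these genes was 0.35 to 1.30, with 7 of the 8 called, and in HepG2 cells it was -0.56 to -0.17, with none called by limma. The cause of the difference was not tested. Groups of 2 libraries are too small for a test of single outlying samples.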

How the results depend on the processing

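The calls depended on the setting. With a pseudocount of 0.1, the Caco-2 counts fell to 1 for co-culture without FFA, its average and the 4 conditions, and to 0 for FFA in mono-culture. In Caco-2 cells FFA in mono-culture gave 6 calls with edgeR, 3 with DESeq2, 5 with no filter and 4 with quantile normalization, averaged FFA gave 5 with edgeR and 2 with no filter, co-culture with FFA gave 4 with edgeR, 2 with DESeq2, 4 with no filter (3 higher and 1 lower) and 2 with quantile normalization, and the interaction gave 2 with no filter. In HepG2 cells edgeR, DESeq2 and quantile normalization gave 7, 8 and 6 for the averaged co-culture effect, 6, 10 and 4 for co-culture with FFA, 3, 4 and 1 for averaged FFA, 3, 8 and 1 for FFA in co-culture, and 8, 12 and 6 for the 4 conditions. The line difference in the FFA effect gave 11 with edgeR and 11 with DESeq2. With its own filter on low counts edgeR tested fewer genes, 4595 in Caco-2, 4030 in HepG2 cells and 5101 over both. Beyond this the cause of these changes was not tested. With the nuclear denominator no count moved by more than 1.5 times. Shares of all genes called are given for limma with the main settings. Counts from other settings and from fits without 1 library stand without such a share, so they have no background.

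Replicate numbers pair no samples by the labels. Over all genes tested, same-numbered libraries did not deviate together (mean correlation 0.0120 in Caco-2, 0.00332 in HepG2 cells). The 13 mRNAs alone did show an order by replicate number in Caco-2 cells. In each group replicate 1 held the larger share of reads in them, as with 0.376% against 0.312% in mono-culture control. In HepG2 mono-culture control replicate 1 held the smaller share, and in the other HepG2 groups the larger. MT-CO2 took more of the mRNA reads in replicate 1 in each Caco-2 group and less in each HepG2 group. The cause was not tested. The fit with the replicate block gave 10 calls for FFA in Caco-2 mono-culture, 11 for the averaged co-culture effect, 5 for averaged FFA, 4 for co-culture with FFA, 3 for the interaction, and 1 for the line difference in the FFA effect.

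Leaving out 1 library each gave, in Caco-2 cells, 0 to 4 calls for co-culture without FFA, 0 to 7 for its average, 0 to 4 for co-culture with FFA, 0 to 3 for FFA in mono-culture, 0 to 4 for FFA in co-culture, 0 to 6 for averaged FFA, 0 to 5 for the interaction and 0 to 6 for the 4 conditions. In HepG2 cells it gave 0 to 1, 0 to 9, 0 to 9, 0 to 1, 0 to 3, 0 to 3, 0 to 1 and 0 to 3 in the same order. The line differences gave 16 to 17 in mono-culture control, 16 to 18 averaged, 3 to 11 for co-culture and 0 to 4 for FFA. Calls beyond the main ones when a library was left out include tRNA genes with few reads. A lone library in a group was assumed to vary like the others.

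Counting only the 13 protein-coding genes, the mean share of reads was 0.344%, 0.623%, 0.766% and 0.874% in Caco-2 mono-culture control, mono-culture FFA, co-culture control and co-culture FFA, and 2.49%, 2.90%, 2.22% and 1.85% in HepG2 cells. Adding nuclear copies moved no share by more than 1 SD. The log2 difference of MALAT1 under FFA in HepG2 cells changed sign with DESeq2 (-0.17), with edgeR (-0.076) and without co-culture FFA replicate 1 (-0.015), and lay between -0.015 and 0.192 when 1 library was left out. Depth limits the tRNA genes and the HepG2 co-culture FFA libraries.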
